A study of Mus musculus with 4 samples.

Results

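The urea cycle genes are Nags, Cps1, Otc, Ass1, Asl and Arg1, which encode the enzymes, and Slc25a13 and Slc25a15, which encode the mitochondrial carriers. They were taken by symbol as members of the pathway, and all 8 were found among the 20909 genes in the authors' deposited table, each with 1 probe. The liver transcripts of 4 Wrn mutant mice were set against those of 4 wild-type mice. All were C57Bl/6 males aged 3 months that ate freely, received no treatment and lived under reversed lighting, with 12 h of light and 12 h of darkness a day. Wrn encodes a RecQ DNA helicase whose loss in humans causes Werner syndrome, a premature ageing disorder. Each of 4 two-colour Agilent arrays carried RNA from 1 mutant and 1 wild-type liver, with the mutant in Cy3 in pairs 1 and 2 and in Cy5 in pairs 3 and 4. The labels call the animals independent biological replicates. They do not say which part of Wrn was altered, which limits what the mutant stands for.

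The urea cycle turns ammonia, freed when amino acids are broken down, into urea for excretion, and runs in full chiefly in periportal hepatocytes. Nags makes N-acetylglutamate, the activator that Cps1 needs, and Cps1 and Otc act inside mitochondria to give citrulline. Ass1, Asl and Arg1 act in the cytosol and release urea and ornithine, which Slc25a15 returns to the mitochondrion in exchange for citrulline, while Slc25a13 exports the aspartate that Ass1 uses.

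Values are log2 ratios, mutant over wild type, given in the order of pairs 1 to 4. That direction is likely rather than stated: it rests on the sample titles and on the name of the authors' table, and every sign below would turn if wild type were the numerator. For all 8 genes the authors' fold change equalled the plain mean of the arrays within 1e-04, so the authors averaged the arrays as running 1 way. The probe for Wrn itself stood at 1.77, 0.91, 1.12 and 1.37, higher in the mutant in each pair, and since the altered part is unknown it checks neither labels nor direction. Pairs 1 to 4 had values for 37627, 40032, 40104 and 39979 of 41174 probes. Of the 10 hepatocyte markers, all were brighter than the median named probe, which fits the labelled tissue.

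RefSeq promoter windows of assembly GRCm38.p6 were at hand for 5 of the 8 genes, and those of Ass1, Nags and Slc25a15 began at the gene's outermost annotated start. The 250 bases before that start are shown 5′ to 3′ for these 3 genes, with motif matches in capitals. They set letters beside some of the transcription factors measured below.
Ass1, chr2:31470020-31470269, plus strand: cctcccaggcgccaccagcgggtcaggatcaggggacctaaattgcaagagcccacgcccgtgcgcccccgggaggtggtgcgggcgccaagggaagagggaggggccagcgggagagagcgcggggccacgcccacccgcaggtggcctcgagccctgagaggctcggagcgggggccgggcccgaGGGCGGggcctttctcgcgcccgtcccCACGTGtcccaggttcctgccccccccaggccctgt
Slc25a15, chr8:22398622-22398871, minus strand: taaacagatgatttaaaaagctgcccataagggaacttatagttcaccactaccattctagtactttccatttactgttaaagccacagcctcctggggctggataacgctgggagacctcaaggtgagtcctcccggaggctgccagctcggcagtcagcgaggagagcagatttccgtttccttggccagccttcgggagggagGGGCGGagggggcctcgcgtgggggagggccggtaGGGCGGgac
Nags, chr11:102145263-102145512, plus strand: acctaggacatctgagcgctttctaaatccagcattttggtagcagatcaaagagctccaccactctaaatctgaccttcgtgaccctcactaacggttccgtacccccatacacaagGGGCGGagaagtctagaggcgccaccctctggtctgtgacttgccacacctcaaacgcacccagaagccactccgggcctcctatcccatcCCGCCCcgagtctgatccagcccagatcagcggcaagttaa
The motifs searched on both strands were the GC box read by Sp1 (GGGCGG), the NF-Y box (CCAAT), the cyclic AMP element half-site (TGACG), a C/EBP site (TTGCNNAA), the glucocorticoid receptor half-site (TGTTCT), the E-box (CACGTG) and the TATA box (TATAAA). Ass1 held 1 GC box and 1 E-box, Slc25a15 held 2 GC boxes, and Nags held 2, of which 1 was on the minus strand, while the other motifs had 0 matches in these windows. No matches overlapped. A GC box occurred in 32.7% and an E-box in 6.02% of 32851 windows of the same length. The NF-Y box occurred in 33.9% of them, the cyclic AMP half-site in 17.8%, the C/EBP site in 9.56%, the glucocorticoid receptor half-site in 16.1% and the TATA box in 12.4%. The Ass1 window was 75.6% G and C, against a median of 52.4% over all windows. These are matches of letters, and binding was not measured.

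None of the urea cycle genes passed the test. With limma, a term for dye orientation and adjustment over all 40238 probes, 0 of the 8 had an adjusted p under 0.05, beside 0% of all probes, and 0 of the 8 had an unadjusted p under 0.05, beside 6.64% of all probes. Their adjusted p ran from 0.736 to 0.945, and 0.736 was also the lowest of any probe in the table. The mean was above 0 for 5 genes and below 0 for 3, with a median of the 8 means of 0.10, beside 0.046 over all named genes. The plot of ratios by pair shows Asl and Arg1 with the widest spread over pairs.

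**Figure D1:**
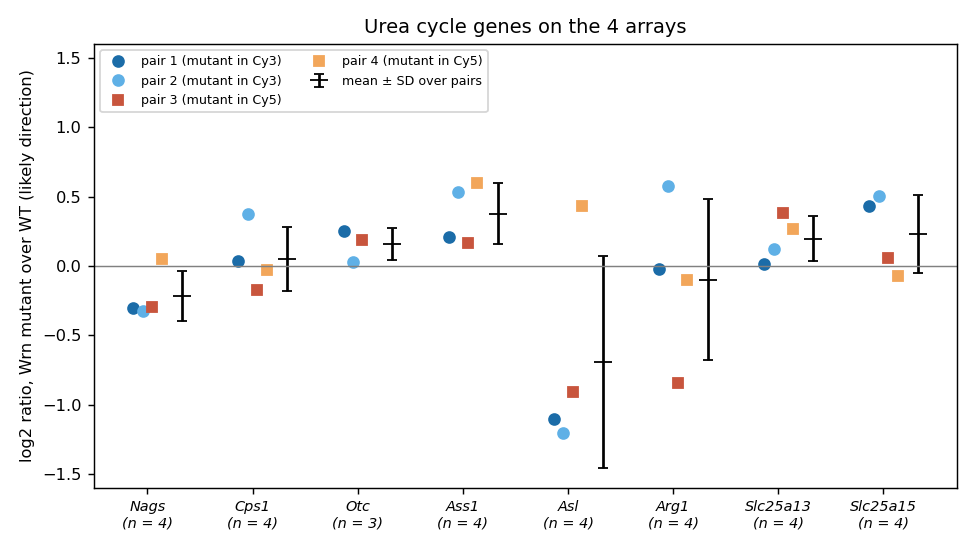
Log2 ratios of Wrn mutant over wild-type liver (y axis, direction likely) for the 8 urea cycle genes (x axis), 1 point per pair, with circles for the mutant in Cy3, squares for the mutant in Cy5, and the mean ± SD in black. Ass1 and Slc25a13 lay above 0 in all 4 pairs, while Asl ran from -1.21 to 0.43 and Arg1 from -0.84 to 0.57.

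Of the mitochondrial enzymes, Nags stood at -0.30, -0.33, -0.30 and 0.052, a mean of -0.22 ± 0.18 (SD, n = 4). It was lower in the mutant in 3 pairs and near 0 in pair 4. The fitted difference had a standard error of 0.16 and an adjusted p of 0.779, and its value was -0.13 without pair 3 and -0.31 without pair 4. Cps1, the enzyme that fixes ammonia as carbamoyl phosphate, stood at 0.037, 0.37, -0.18 and -0.033, with a mean of 0.051 ± 0.23 (SD, n = 4) and an adjusted p of 0.945. Its pairs fell on both sides of 0, and the 95% interval of the fitted fold ran from 0.765 to 1.40. Otc, which joins carbamoyl phosphate to ornithine, stood at 0.25, 0.029 and 0.18 in pairs 1 to 3 and had no value in pair 4. It was above 0 in all 3, with a mean of 0.16 ± 0.11 (SD, n = 3). The fit weighed pair 3 as much as pairs 1 and 2 together, and gave an adjusted p of 0.862.

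Of the cytosolic enzymes, Ass1, which joins citrulline to aspartate, had the highest mean of the 8 genes. It stood at 0.21, 0.54, 0.16 and 0.60, averaging 0.38 ± 0.22 (SD, n = 4), which is 1.30-fold. All 4 pairs were higher in the mutant, yet the 95% interval of the fold ran from 0.932 to 1.81 and the adjusted p was 0.736. Asl, which splits argininosuccinate into arginine and fumarate, had the lowest mean. It stood at -1.10, -1.21, -0.91 and 0.43, averaging -0.70 ± 0.76 (SD, n = 4), which is 0.618-fold. Pairs 1 to 3 were lower in the mutant and close to each other, and pair 4 was higher. The 95% interval of the fold ran from 0.361 to 1.06, with an adjusted p of 0.736. Without pair 4 the plain mean of Asl was -1.07 and the fitted value -1.03 (adjusted p = 0.704), and without pair 3 the fitted value was -0.36 (adjusted p = 0.805). In those fits the lone array left in its dye orientation counted as much as the other pair of arrays together.

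On the same array Asl read below Ass1, the enzyme just before it in the cycle, in all 4 pairs, with differences of -1.31, -1.74, -1.07 and -0.16 on the log2 scale. This pair of genes was singled out after their values were seen and was not tested. Arg1, which releases urea from arginine, stood at -0.024, 0.57, -0.84 and -0.10, a mean of -0.099 ± 0.58 (SD, n = 4) with an adjusted p of 0.920. Pairs 2 and 3 lay on opposite sides of 0, and the sign of the fitted value turned without pair 1 (0.050) and without pair 3 (0.086). Macrophages can also make arginase. The median log2 ratio of 12 Kupffer cell and macrophage markers was 0.78, 1.01, -0.22 and 0.98 in pairs 1 to 4. Pair 3 was lowest for these markers and for Arg1, and also for the hepatocyte markers, at a median of -0.24. In pairs 1 and 4 Arg1 lay below 0 while the macrophage median lay above 0. The part of macrophages in the Arg1 ratio was not tested.

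Of the carriers, Slc25a13, known as citrin, stood at 0.012, 0.12, 0.38 and 0.26, a mean of 0.20 ± 0.16 (SD, n = 4). It was higher in the mutant in all 4 pairs, by a margin close to 0 in pair 1, and its adjusted p was 0.784. Slc25a15, the ornithine and citrulline exchanger, stood at 0.43, 0.50, 0.060 and -0.076, a mean of 0.23 ± 0.28 (SD, n = 4) with an adjusted p of 0.764. Both pairs with the mutant in Cy3 were higher in the mutant, and both with the mutant in Cy5 lay near 0. Slc25a12, or aralar, is the other aspartate and glutamate carrier and is known as the form prominent in brain and muscle. It stood at -0.034, -0.67, -0.73 and -0.73, below citrin on the same array by 0.046 to 1.11 in all 4 pairs, a difference described after the values were seen and not tested.

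Ratios above 0 in all 4 pairs were found for 2 of the 7 urea cycle genes with 4 values, Ass1 and Slc25a13, and below 0 in all 4 for 0 of them. Over all named genes with 4 values these shares were 10.9% and 10.1%, and over those brighter than the median probe 13.4% and 12.7%. An exact two-sided sign-flip permutation test gave p = 0.125 for Ass1 and for Slc25a13, the smallest that 4 pairs allow, and from 0.25 to 0.75 for the other 6 genes, where the 3 values of Otc allow no less than 0.25. The fitted intervals of all 8 genes included 0, as the plot of fitted ratios shows.

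**Figure D2:**
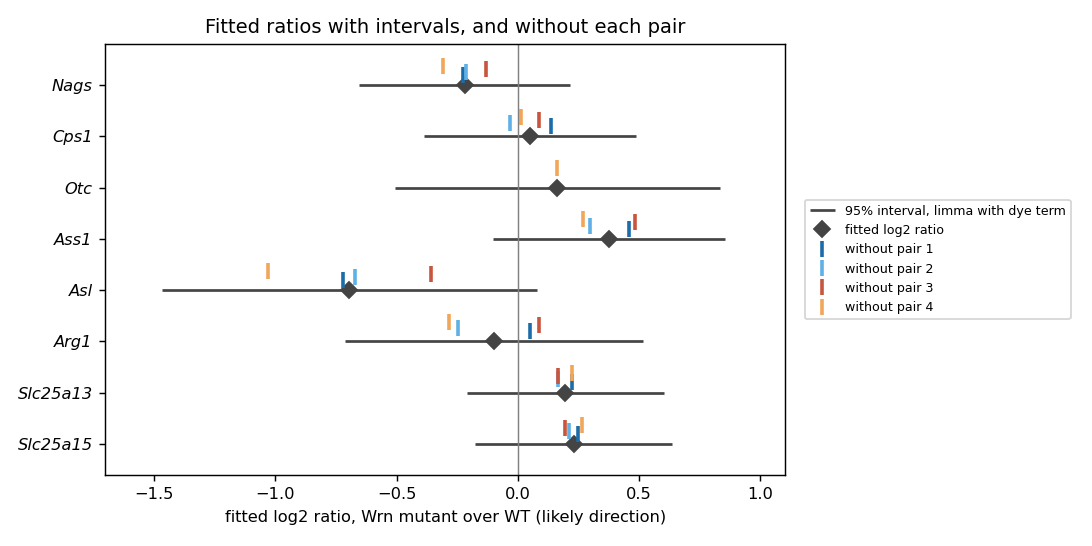
Fitted log2 ratio of Wrn mutant over wild-type liver (x axis, direction likely) for each urea cycle gene, with its 95% interval from limma as a bar and the value without each pair as a coloured tick. Every interval includes 0, and the ticks of Asl spread most, from -1.03 without pair 4 to -0.36 without pair 3; Otc has 3 values, so only the fit without pair 4 was possible.

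The signal behind these ratios was strong for 7 of the 8 genes. The average log2 intensity in the authors' deposited table, over both channels and all arrays, was 15.4 for Ass1, 15.3 for Cps1, 13.9 for Otc, 13.4 for Arg1, 12.4 for Nags, 12.0 for Slc25a13 and 11.5 for Slc25a15, each brighter than at least 94.7% of named probes. The probe for Asl was dimmer, at 7.60, brighter than 67.3% of them. Brightness depends on the probe as well as the transcript, so these values rank signal and not expression. The SD over pairs for Arg1 was 0.58, where probes within 0.5 of its intensity had a median SD of 0.24 and 9.64% of 280 had a larger one. For Asl the SD was 0.76, against a median of 0.41 at its own intensity, and 10.4% of 2222 probes exceeded it. Nags, Cps1, Otc and Slc25a13 had an SD below the median of like probes. The SD of Otc is over 3 pairs, whereas the like probes all had 4 values, so that comparison is uneven.

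**Figure D3:**
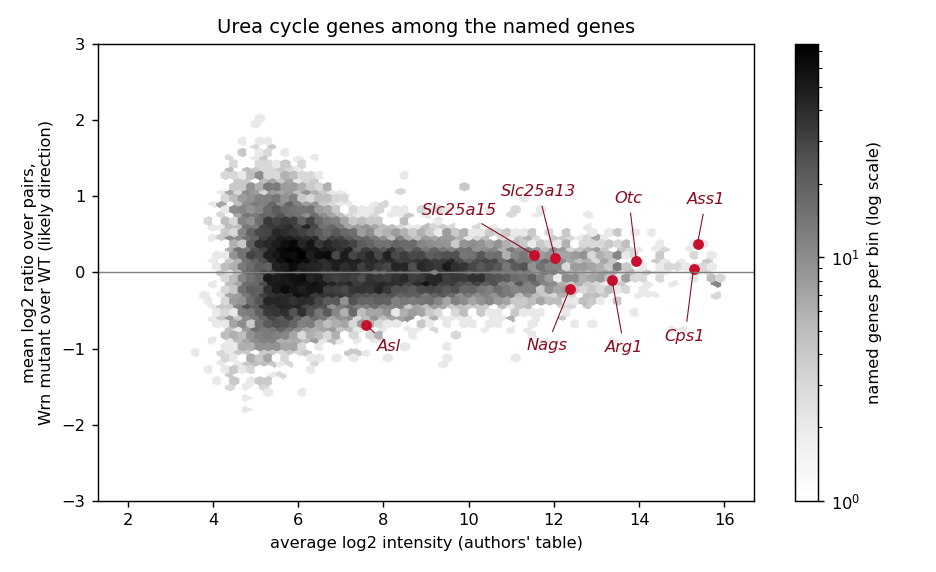
Mean log2 ratio over pairs (y axis, Wrn mutant over wild type, direction likely, drawn from -3 to 3) against the average log2 intensity of the authors' table (x axis). Grey bins count named genes with 4 values on a log scale, and red points are the 8 urea cycle genes (Otc with 3 values): 7 of them lie at intensities of 11.5 or more, and Asl lies at 7.60 with the lowest mean of the 8, -0.70.

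The dye orientations were compared gene by gene. For 6 of the 7 urea cycle genes with 4 values, all but Ass1, the pairs with the mutant in Cy5 did not overlap those with the mutant in Cy3, beside 38.9% of all named genes with 4 values. Arg1 averaged -0.47 with the mutant in Cy5 and 0.27 with it in Cy3, and Slc25a15 averaged -0.0083 and 0.47. Asl averaged -0.24 with the mutant in Cy5 and -1.15 with it in Cy3, and Cps1 averaged -0.10 and 0.21. Slc25a13 went the other way from Slc25a15, at 0.32 with the mutant in Cy5 and 0.068 with it in Cy3. The orientation term passed at 0 of the 8 genes and 0 of all 40238 probes with limma, and its lowest adjusted p among the 8 was 0.748 (Arg1). The orientations hold different animals, so labelling and animals cannot be told apart here.

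Of 15 genes listed for nitrogen delivery and related steps, among them Car5a, Sirt5 and Slc25a2, 0 passed the test in either direction. Of these 11 had a mean above 0, with a list median of 0.29, and 5 were above 0 in all 4 pairs, namely Slc25a22, Gls2, the glutamine transporter Slc38a3 and the aminotransferases Gpt2 and Got1. Slc25a22, a mitochondrial glutamate carrier, stood at 0.75, 0.57, 0.45 and 0.52 (adjusted p = 0.736). Gls2, the liver glutaminase that frees ammonia from glutamine, stood at 0.43, 0.47, 0.44 and 0.75 (adjusted p = 0.736). The lowest means belonged to Slc25a12, given above, and to Slc25a2, an ornithine carrier in humans, whose dim probe had values of -3.85, -0.13 and 0.18 and none in pair 3. Glud1, which frees ammonia from glutamate, stood at -0.47, -0.17, 0.32 and 0.81, negative with the mutant in Cy3 and positive with it in Cy5.

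Genes listed for ornithine and arginine use and related steps, among them Glul, Prodh and Aldh18a1, split both ways. Of 14 measured genes 6 had a mean above 0 and 8 below, with a median of -0.25 and 0 past the test. Oat, ornithine aminotransferase, which draws ornithine away from the cycle, stood at 1.19, 1.80, 0.88 and 1.13, a mean of 1.25 ± 0.39 (SD, n = 4), and did not pass the test (limma unadjusted p = 0.00251, adjusted p = 0.736). Glul, the glutamine synthetase that takes up residual ammonia around the central vein, stood at -0.78, -0.53, -0.36 and -0.14 (adjusted p = 0.736). Ddah2, which breaks down methylated arginines, followed Oat on the higher side at a mean of 0.26 ± 0.23 (SD, n = 4). The lowest means belonged to Arg2, the mitochondrial arginase, at -0.91 ± 1.68, and to Slc7a1, an arginine transporter, at -0.72 ± 0.61 (SD, n = 4). The Arg2 mean rested on -3.36 in pair 2, since its other pairs stood at -0.65, 0.29 and 0.065. The probes of Glul and Slc7a1 were dim, at average log2 intensities of 6.27 and 5.95, below the median named probe at 6.40.

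Regulators known to act on urea cycle or amino acid enzyme genes did not pass either. Of 15 measured, 11 had a mean above 0, 2 were above 0 in all 4 pairs (Klf15 and Foxo3), and the list median was 0.21. The highest means were those of Ppargc1a, a coactivator of fasting genes, at 0.48 ± 1.15, and Klf15, a factor for amino acid breakdown, at 0.35 ± 0.28 (SD, n = 4). The lowest were those of Nfyb, a subunit of NF-Y, at -0.40 ± 0.60, and Hnf4a, a hepatocyte factor, at -0.34 ± 0.40. Sp1, whose GC box was searched above, was at -0.11 ± 0.22, Creb1 at 0.21 ± 0.44, Cebpa at 0.29 ± 0.42 and the glucocorticoid receptor gene Nr3c1 at -0.060 ± 0.24. Of 8 measured amino acid enzymes that respond to glucagon, glucocorticoid or amino acid supply, 7 had a mean above 0 and the median was 0.17. Tdo2, which breaks down tryptophan, was at 0.39 ± 0.48, while Asns, asparagine synthetase, was at -0.64 ± 0.28 and Sds, serine dehydratase, at 0.062 ± 0.35, with 0 of the 8 past the test.

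Markers of liver zones were set beside the cycle, which is strongest near the portal vein. Periportal markers had a median of -0.13 over 9 genes, led by Gls2 at 0.52 ± 0.15 and Hal, histidine ammonia-lyase, at 0.21 ± 0.49, and ending with Cdh1, the adhesion protein E-cadherin, at -0.97 ± 0.15 and Sox9 at -0.53 ± 0.25 (SD, n = 4). Pericentral markers had a median of -0.12 over 10 genes, led by Oat above and Cyp2a5 at 0.84 ± 0.75, and ending with Glul above and the ammonium transporter Rhbg at -0.34 ± 0.33 (SD, n = 4). In both lists 0 genes passed the test. Cdh1, Sox9 and Spp1 among the periportal genes were below 0 in all 4 pairs, as were Glul and Rhbg among the pericentral ones. Sox9 and Spp1 also stand in the cholangiocyte list below.

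Markers of the cells in whole liver were read on the same arrays. Hepatocyte markers had a median log2 ratio of -0.16, with 9 of 10 means below 0 and pair medians of -0.12, -0.21, -0.24 and -0.037. Kupffer cell and macrophage markers had a median of 0.63 with 12 of 12 means above 0 and pair medians of 0.78, 1.01, -0.22 and 0.98. In pair 3, 10 of these 12 markers were below 0. B and plasma cell markers had a median of 0.91 over 7 genes, sinusoidal endothelial markers 0.45 over 8 and erythroid markers 0.50 over 4. Cholangiocyte markers had a median of -0.47 over 7 genes and stellate cell markers -0.11 over 7. None of these genes passed the test, and their part in the urea cycle ratios was not tested. In whole tissue, fewer cells of a type and less RNA per cell cannot be told apart.

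**Figure D4:**
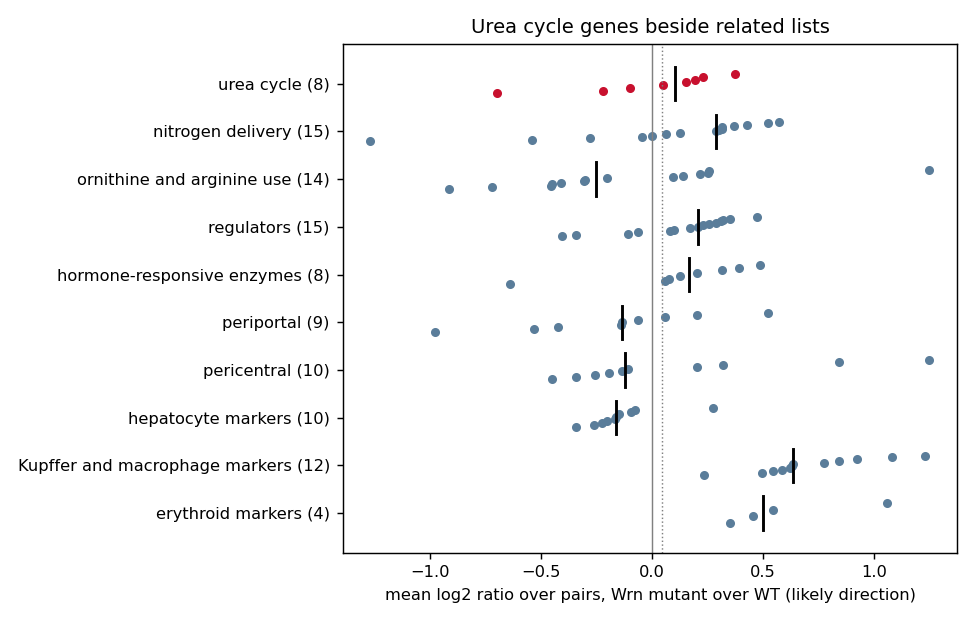
Mean log2 ratio over pairs (x axis, Wrn mutant over wild type, direction likely) of each measured gene, by list (y axis, number measured in brackets), with urea cycle genes in red, list medians as black bars and the median of all named genes, 0.046, as a dotted line. The urea cycle median is 0.10, between nitrogen delivery at 0.29 and hepatocyte markers at -0.16. The means of the Kupffer and macrophage markers all lie above 0, although 10 of these 12 were below 0 in pair 3.

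The median profile of the 7 urea cycle genes with 4 values was 0.012, 0.37, -0.18 and 0.052. The 5 named genes nearest to it, by Euclidean distance over the 4 pairs, were Rfesd at 0.083, Psma5 at 0.10, Mrpl43 at 0.10, Pzp at 0.12 and Rif1 at 0.12 log2 units, and 72 of 17679 genes lay within 0.25. The profile itself lay 0.42 from 0 by the same measure.

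A fit whose prior variance follows intensity called 42 of 20379 named probes, or 0.206%, and 0 of the 8 urea cycle genes. In that fit limma's lowest unadjusted p among the 8 was 0.0238 for Asl, below 0 (adjusted p = 0.371). Ass1 and Slc25a15, both above 0, followed at 0.0358 (adjusted p = 0.413) and 0.0464 (adjusted p = 0.438). The share of all named probes with so low an unadjusted p in that fit is not given here, so these values have no background beside them. Among named probes brighter than the median, limma gave Asl an unadjusted p of 0.0396 (adjusted p = 0.312).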

How the data were processed

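Per the file headers, the authors deposited log2 ratios of every probe on each array. Their gene table adds the average log2 intensity, the log2 fold change and p-values, of which the deposited p-values were not used. Limma is named in the submitters' processing notes. Background correction, normalization and the choice of 1 probe per gene: not given in the sources used here. Symbols were checked against RefSeq accessions (7 of 8 urea cycle genes matched), and 134 of 138 list memberships were found, by accession first. All probes with at least 3 values (40238) were fitted with lmFit and eBayes in limma 3.58.1 (R 4.3.3) on genotype plus dye orientation, leaving 2 residual degrees of freedom, and p-values were adjusted by Benjamini-Hochberg with a threshold of 0.05. The code was tested on simulated data. The number of arrays limits the precision: the median standard error was 0.21. Named from each list were any genes past the test, otherwise the 2 highest and the 2 lowest means. Results of some list genes are not reported here. Members and lists were chosen with earlier results of these data known. Other genes named were chosen after their values were seen. Alternatives are in the closing section.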

Additional observations from a re-analysis of the deposited data

Results flagged for a closer look

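In 42 results with 4 values (genes named by rule and list medians), 4 had 1 pair far from the other 3. For independent results chance would give about 2.1. These results share the same 4 arrays and some share genes, so the 2 counts cannot show an excess. Nags was at 0.052 in pair 4, against -0.33 to -0.30 in the others. Hal was at 0.94 in pair 4, against -0.055 to -0.016. Gls2 was at 0.75 in pair 4, against 0.43 to 0.47. Slc25a12 was at -0.034 in pair 1, against -0.73 to -0.67. Pair 4 was the far one in 3 of these 4. It was also the pair in which Asl changed side, at 0.43, although Asl was not among the 4.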

How the results depend on the processing

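The alternatives were no dye term, arrays with the mutant in Cy5 turned, centring, scaling, each pair left out, a prior following intensity, robust eBayes, array weights, named probes only, brighter probes only, probes with 4 values only, other thresholds and the authors' fold change. The count of urea cycle genes past the test was 0 under each of these except the authors' fold change, which was run for values only, and their orientation count was 0 with centring. Turning the Cy5 arrays beside a dye term gives the orientation coefficient with its sign reversed, so that count restates the orientation test above. With the Cy5 arrays turned, Otc went to -0.022, Ass1 to -0.0033, Arg1 to 0.37 and Slc25a13 to -0.13, with a median over the genes of -0.013. As reported, that median is 0.11. Leaving out 1 pair gave fitted values of -0.28 to 0.086 for Arg1 (0.050 without pair 1, 0.086 without pair 3) and -0.033 (without pair 2) to 0.13 for Cps1, and a median over the genes of -0.033 to 0.13. Over the whole table, 42 probes passed with the prior following intensity, 1 among brighter probes and 2673 at an unadjusted p of 0.05. The cause was not tested. Each ratio sets 1 mutant against 1 wild-type liver on the same array, so the fit and the exact test are paired throughout. Otc has 3 values, so it could be fitted without pair 4 only. The number of arrays limits the precision, and Asl had the dimmest probe of the 8 genes.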
